A study of Mus musculus with 629 samples.

Results

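Macrophages with Fos counts were the brain cells labelled macrophages in which the deposited table held at least 1 raw count of Fos. They numbered 164 of the 400 macrophages, among 629 cells in all, and were set against the 236 macrophages with 0 Fos counts. The cells were chosen by their own Fos counts, so the values of Fos are given as a description. No other gene was tested either, since both sides were cut from the same cells by one of their readouts, cells are not replicates, and no label names an animal.

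The cells came from brains of adult C57BL/6 mice of the reporter line SM22-Cre;Rosa26-stop-tdTomato, in which the promoter of SM22 (the smooth muscle gene Tagln) drives Cre, and Cre switches on the red fluorescent protein tdTomato. Both alleles were shared by all groups. Cells were sorted singly into 384-well plates and sequenced by SMART-seq2, a full-length method for polyadenylated RNA without molecular identifiers. The groups were Notch3 knockout (KO), with 119 macrophages on plates 060s and 524s, heterozygous (Het), with 70 on plates 056s, 524s and 529s, and wild type (WT), with 211 on plates 059s, 529s and 530s. Cells that shared both plate and genotype formed a pool, and the 8 pools each had at least 5 macrophages on both sides. Sides were compared inside each pool, except where cells of all pools were combined, as in the classes of Fos counts below. Inside a pool, plate and genotype were the same on both sides.

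Fos encodes a transcription factor that pairs with Jun proteins to form AP-1. It is the standard example of an immediate early gene: its transcription starts within minutes of a signal through serum response factor, CREB or STAT sites, and its mRNA is soon degraded. Other immediate early genes answer the same MAP kinase signals, and among their products Zfp36 (tristetraprolin) destabilises cytokine mRNAs and Dusp1 dephosphorylates MAP kinases. Perivascular macrophages line brain vessels and are known by the mannose receptor Mrc1, the scavenger receptors Cd163 and Stab1, and Lyve1.

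The 250 bases upstream of the start of Fos, Rhob and Zfp36 are shown because Fos chose the cells, Rhob was one of the immediate early genes that stood higher with Fos in every pool, and Zfp36 is a named marker that did not. The letters are from RefSeq, build GRCm38.p6, 5′ to 3′ on the gene's own strand, which is plus for Fos (chr12:85473640-85473889) and minus for Rhob (chr12:8500010-8500259) and Zfp36 (chr7:28379229-28379478). Capitals mark motif matches. In Fos they are an NF-kB site, both separate matches to TGACG, the core letters of cAMP response elements, and the TATAAA box, and in Zfp36 a CArG box, the letters that serum response factor binds.
Fos: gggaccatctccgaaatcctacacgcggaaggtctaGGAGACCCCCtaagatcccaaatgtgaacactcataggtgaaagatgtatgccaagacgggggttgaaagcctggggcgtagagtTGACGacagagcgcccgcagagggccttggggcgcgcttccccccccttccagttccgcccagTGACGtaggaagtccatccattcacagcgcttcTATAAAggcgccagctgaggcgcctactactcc
Rhob: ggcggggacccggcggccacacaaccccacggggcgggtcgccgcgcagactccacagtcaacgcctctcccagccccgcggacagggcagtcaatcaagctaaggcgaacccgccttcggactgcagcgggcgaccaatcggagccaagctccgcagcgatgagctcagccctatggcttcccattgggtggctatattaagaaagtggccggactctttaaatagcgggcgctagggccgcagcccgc
Zfp36: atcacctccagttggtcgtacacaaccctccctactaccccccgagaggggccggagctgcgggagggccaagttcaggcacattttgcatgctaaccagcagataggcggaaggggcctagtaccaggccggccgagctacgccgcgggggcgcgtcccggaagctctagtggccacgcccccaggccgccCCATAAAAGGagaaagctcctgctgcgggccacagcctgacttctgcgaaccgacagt

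Each motif was searched on both strands: TATAAA, the CArG box, TGACG, the NF-kB site and the AP-1 site TGANTCA. In Fos the TGACG matches ended 125 and 62 bases upstream of the start, the TATAAA box 28 bases and the NF-kB site 205 bases, and in Zfp36 the CArG box ended 49 bases upstream. Of the 19 measured immediate early genes, Fos included, 15 had a promoter in the table; Trib1 had none. TGACG stood in 7 of the 15 windows, against 17.8% of all 32851 promoters, TATAAA in 4 against 12.4%, the NF-kB site in 3 against 7.25%, and the CArG box and the AP-1 site in 1 each, against 1.47% and 6.75%. The Rhob window held none of these motifs. These matches describe letters only, and sites outside the window were not searched.

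Depth differed between the sides in some pools. The median total per cell, without ERCC spike-ins and the 18S ribosomal RNA Rn18s, was 231566 counts with Fos and 177738 without, over a range of 1488 to 1959090. Inside pools the median was higher with Fos in 6 of 8, with a ratio of 0.497 (KO of plate 524s) to 1.82 (WT of plate 529s). Rn18s took a median of 45.6% of gene counts with Fos and 43.6% without, and cells held a median of 3618 and 3266 genes. No pair of deposited columns was identical. Notch3 could not check the genotype labels, since 1 of 119 KO, 0 of 70 Het and 1 of 211 WT macrophages had a count. The label was set beside its markers: the 30 perivascular macrophage genes summed to 38346 to 55209 CPM with Fos and 39822 to 52732 CPM without, against 13552 to 29980 CPM over both sides of the microglia. The 18 homeostatic microglia genes summed to 18378 to 29738 CPM with Fos and 17538 to 31400 CPM without, against 71529 to 106771 CPM in microglia.

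Fos counts were found in 41% of macrophages (95% interval 36.1 to 46%), a share that ranged more widely between pools than between genotypes. In KO it was 26.9% (32 of 119 cells, 19.2 to 35.8%), in Het 55.7% (39 of 70, 43.3 to 67.6%) and in WT 44.1% (93 of 211, 37.3 to 51.1%). The KO share was the sum of unlike pools: 19.4% of 98 cells on plate 060s (12.1 to 28.6%) and 61.9% of 21 cells on plate 524s (38.4 to 81.9%). In Het it was 62.9% on plate 056s, 43.8% on 524s and 52.6% on 529s, and in WT 57.4% on 059s, 65.4% on 529s and 35.5% on 530s. Plate 060s, the lowest, and plates 056s, 059s and 530s held 1 genotype of macrophages each, so plate and genotype cannot be told apart there. On the plates that held a pair of genotypes, the shares were 61.9% in KO and 43.8% in Het (524s), and 52.6% in Het and 65.4% in WT (529s), with intervals that overlapped. Intervals are exact (Clopper-Pearson) and cover counting error only.

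A deeper cell has more chances to show a Fos count. Cells were therefore thinned to 62358 counts, which left out 40 shallower cells, and 113 of 360 (31.4%, 26.6 to 36.5%) still had one. By pool the thinned share was 14.7% and 47.4% in KO (060s, 524s), 31.4%, 23.1% and 50% in Het (056s, 524s, 529s), and 40.4%, 62.5% and 28.2% in WT (059s, 529s, 530s). Plate 056s, the deepest, moved most, and plate 060s remained the lowest. Microglia of the same pools gave a like spread: 85 of 215 (39.5%, 33 to 46.4%) had Fos counts, with 10.6% in KO of plate 060s, the lowest, and 73.3% in WT of plate 529s, the highest.

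**Figure D1:**
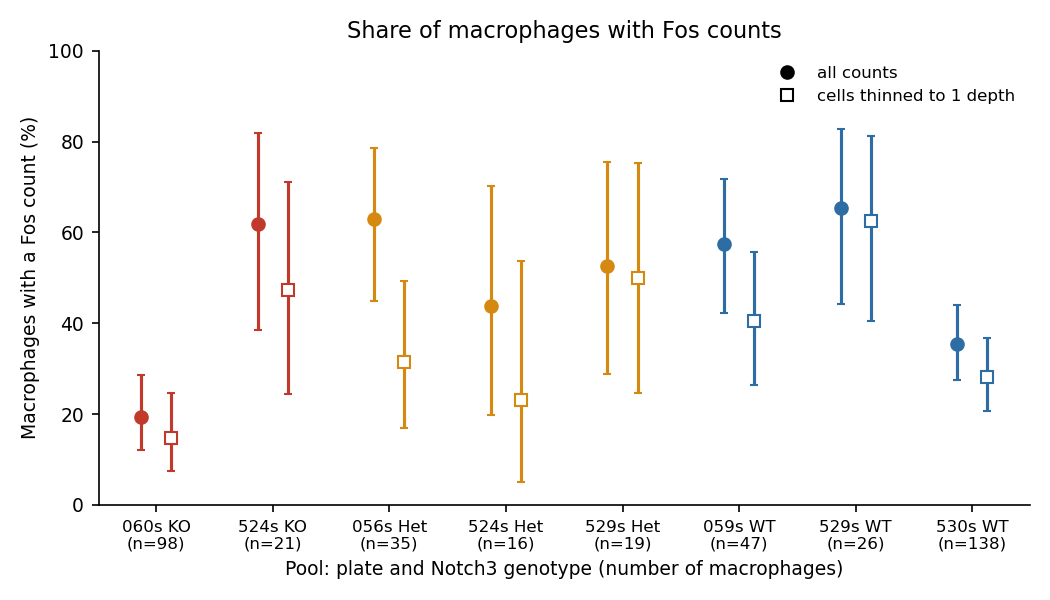
Percentage of macrophages with at least 1 Fos count (y axis) in each of the 8 pools (x axis, with the number of cells), from all counts (filled circles) and after thinning to 1 depth (open squares), with exact 95% intervals. KO of plate 060s is lowest in both, at 19.4% and 14.7%.

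Among the chosen cells, Fos ran from traces to very high levels. Of the 164 cells, 47 had exactly 1 count, 24 had 2 to 9 and 93 had at least 10, and these 93 held 99.4% of the 22689 Fos counts. Levels are in CPM, counts scaled to a total of 1000000 gene counts without ERCC and Rn18s. The median was 144 CPM, with a range of 0.549 to 9578 CPM. Cells just inside the rule, with 1 count, had a median of 3.79 CPM and at most 18.9 CPM. Those just outside had 0 counts, which at their median depth allows up to 16.9 CPM (3 counts), so both may hold the same level. In the 1-count cells depth was higher, with a median of 263968 counts.

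Summed over the chosen cells of a pool, Fos stood at 106 and 206 CPM in KO (060s, 524s), at 158, 194 and 181 CPM in Het (056s, 524s, 529s) and at 790, 993 and 297 CPM in WT (059s, 529s, 530s). In these sums every WT pool lay above every KO and Het pool. The median chosen cell did not keep this order. It had 149 CPM in WT of plate 530s, below KO of 524s (159 CPM) and Het of 529s and 524s (171 and 243 CPM). In WT of plates 059s and 529s it had 249 and 638 CPM. With 2 or 3 pools a genotype and no animals named, the order was not tested, and in KO of plate 060s only 5 of 98 cells had at least 10 counts. Single cells weighed on these sums: 1 WT cell of plate 059s held 6292 counts, 27.7% of all Fos counts of macrophages, and the top cell of a pool held 26.1 to 60.7% of its Fos counts.

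**Figure D2:**
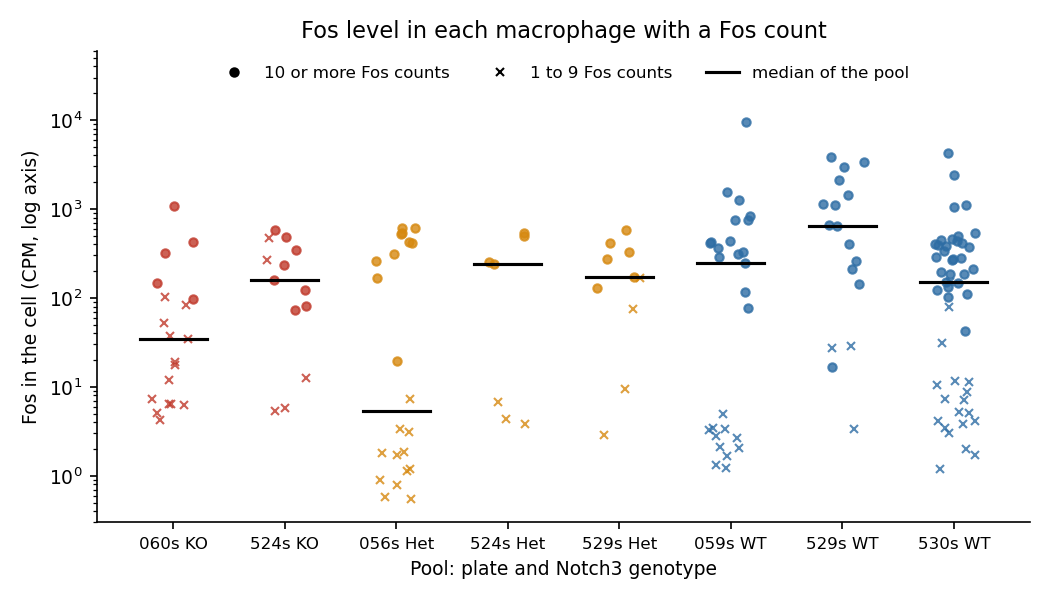
Fos level (y axis, CPM on a log axis) in each of the 164 macrophages with a Fos count, by pool (x axis); circles are cells with at least 10 counts, crosses cells with 1 to 9, and bars the pool medians. The highest cell, at 9578 CPM, lies in WT of plate 059s, and the pool median is lowest in Het of plate 056s, at 5.32 CPM.

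Other AP-1 genes showed no call. The AP-1 list, without Fos, had 4 measured members of 12, with a median log2 ratio of 0.37 over the pools, against 0.09 for all measured genes; 3 of the 4 lay above 0. Without Het of plate 529s the list median was 0.07. A gene was measured when it reached a mean of 20 CPM and a count in 25% of cells on the same side. A log2 ratio is that of CPM + 1, with over without Fos, formed in each pool and averaged over the 8 pools; 1 is 2-fold. A gene is called higher or lower when this mean is at least 1 or at most -1 and every pool has the same sign. By this rule 20 of 5096 measured genes, Fos among them, were higher (0.392%) and 14 were lower (0.275%). With the same sign in every pool at any size, 38 genes were higher (0.746%) and 27 lower (0.53%). None of the 4 measured AP-1 members was among the 20.

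Jun, the main partner, stood at 43.5 and 266 CPM with Fos in KO (060s, 524s), 197, 191 and 89.3 CPM in Het (056s, 524s, 529s) and 78.6, 443 and 116 CPM in WT (059s, 529s, 530s). Without Fos it stood at 92.5 and 86.7 CPM in KO, 14.9, 74.5 and 73.2 CPM in Het and 123, 287 and 121 CPM in WT. It was thus higher with Fos in 5 of 8 pools, in all of Het and on plates 524s and 529s, and the sides overlapped. Its mean log2 ratio was 0.72 ± 1.49 (SD over 8 pools). Junb, another partner, was higher with Fos in 7 of 8 pools (0.83 ± 1.41), at 13.2 to 373 CPM (median 63.9) with Fos and 0 to 290.1 CPM (median 48.3) without. Mafg, a small Maf protein, was level (0.02 ± 1.17), and Fosl2, a Fos relative, was higher in 4 pools and lower in 4 (-0.53 ± 2.83). Atf3 and Fosb, which are induced beside Fos in many cells, were not measured: a count was found in 5.49% and 1.22% of cells with Fos and in 2.97% and 1.27% without.

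Of the other immediate early genes, 14 of 34 were measured. Their median log2 ratio was 0.62 and 13 of the 14 lay above 0, where 2912 of all 5095 measured genes other than Fos did. Trib1 and Rhob were called higher. Trib1, a pseudokinase that directs the transcription factor C/EBP to degradation, had 110 and 98.7 CPM with Fos in KO (060s, 524s), 52.1, 209 and 67.9 CPM in Het (056s, 524s, 529s) and 142, 98 and 69 CPM in WT (059s, 529s, 530s). Without Fos it had 5.46 and 13 CPM in KO, 41.2, 41.1 and 50.7 CPM in Het and 44.9, 32.3 and 51.7 CPM in WT. Every pool with Fos lay above every pool without, though only just, at 52.1 against 51.7 CPM. Its mean log2 ratio was 1.70 ± 1.35, and a median of 41.3% of a pool's counts with Fos came from its top cell.

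Rhob, a small GTPase of endosomes and actin, had 37.1 and 53.8 CPM with Fos in KO, 122, 30.3 and 77.6 CPM in Het and 46.6, 95.3 and 33.7 CPM in WT. Without Fos it had 25.2 and 23.1 CPM in KO, 44.3, 8.37 and 6.43 CPM in Het and 23.1, 52.9 and 25.7 CPM in WT. All 8 pools were higher with Fos, by a mean of 1.31 ± 0.96, although the ranges of the sides overlapped. Klf10, Btg2, Ier2 and Btg1 had means of 1.11, 1.20, 1.34 and 1.07, but 1 to 3 pools each ran the other way. Ier2, a nuclear immediate early protein, had 0 counts without Fos in KO of plate 524s, where 7 of 13 cells with Fos had it. At the low end, Klf6 stood at 0.16 and Mcl1 at -0.14.

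Zfp36 was higher with Fos in 4 of 8 pools, with a mean log2 ratio of 0.27 ± 0.97. It stood at 62.5 and 389 CPM with Fos in KO (060s, 524s), 224, 240 and 150.3 CPM in Het (056s, 524s, 529s) and 446, 970.3 and 236 CPM in WT (059s, 529s, 530s). Without Fos it stood at 67 and 148 CPM in KO, 325, 446 and 215 CPM in Het and 140, 902 and 114 CPM in WT. All 3 Het pools were lower with Fos and all 3 WT pools higher. Egr1, a zinc finger transcription factor, was too sparse to be measured: 14.6% of cells with Fos and 7.2% without had a count. Its summed level was 0 to 160.3 CPM (median 9.76) with Fos and 0 to 20.6 CPM (median 0.0926) without, higher in 6 of 8 pools, and in 5 of the 7 pools that had it with Fos the top cell held at least 80.45% of the counts.

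Of the MAP kinase feedback genes, 3 of 12 were measured and none was called. Dusp1 was higher with Fos in 7 of 8 pools (1.18 ± 2.18). It stood at 2.59 to 1630 CPM (median 232) with Fos and 0.673 to 1274 CPM (median 31) without, and KO of plate 060s alone ran the other way, at 2.59 CPM with Fos and 34.8 CPM without. Dusp6, an ERK phosphatase, was level (0.05 ± 0.41). Of the 20 genes upstream of Fos, 12 were measured, with a median of 0.30 and none called. Stat3, which binds the Fos promoter in other cells, was higher in 6 of 8 pools (0.74 ± 0.93), and the ERK kinase gene Map2k1 was level (0.06 ± 0.79). Exons of Jun, Junb, Zfp36, Dusp1, Stat3 and Irf7 overlap those of a gene on the other strand (Junos, Prdx2, Gm44710, Ergic1, Stat5a and Phrf1). The strand used in counting is not stated, so their counts may include the neighbour's reads. Exons of Mafg overlap those of Sirt7 on the same strand. Of the 81 named genes found in the annotation, 29 had an overlap on either strand.

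**Figure D3:**
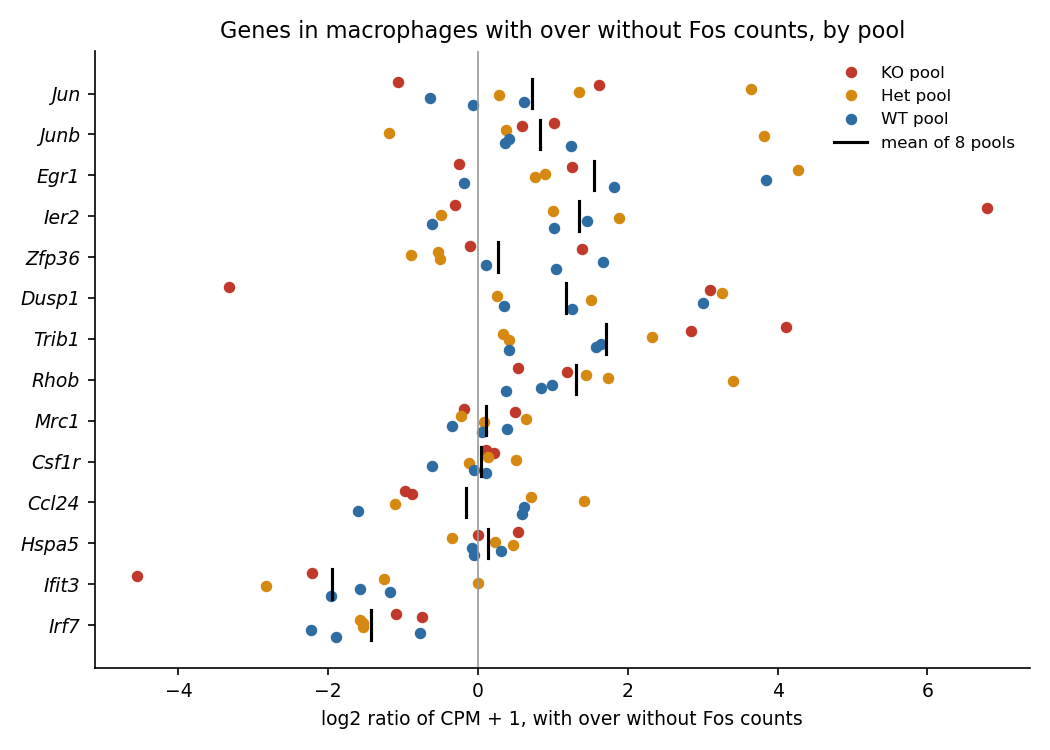
log2 ratio of CPM + 1 (x axis), with over without Fos counts, for 14 genes (y axis) in each of the 8 pools, coloured by genotype, with the mean of the pools as a bar. Trib1 and Rhob lie above 0 in all pools and Irf7 below 0 in all, while Mrc1 and Csf1r sit near 0.

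With cells of all pools combined, several immediate early genes were found most often in cells with the larger Fos counts. Plate and genotype differed between these classes, so the shares mix pool with Fos. KO of plate 060s gave 79 of the 236 cells with 0 Fos counts and 5 of the 93 with at least 10. In WT of plate 529s, which gave 9 and 14, Jun, Zfp36 and Dusp1 had a count in 100% of cells of both classes. Zfp36 had a count in 69.9% of cells with 0 Fos counts, 74.5% with 1, 91.7% with 2 to 9 and 92.5% with at least 10. Junb had one in 26.7%, 29.8%, 41.7% and 57%, Ier2 in 28%, 34%, 54.2% and 55.9%, and Jun in 42.4%, 40.4%, 50% and 63.4%. For these 4 genes, cells with 1 count lay near the cells with none, at a higher depth. Trib1 and Rhob, the genes called on summed levels, did not follow this order: Trib1 had a count in 25.4%, 42.6%, 50% and 39.8% of cells and Rhob in 39.4%, 51.1%, 62.5% and 57%. The summed level of the immediate early genes without Fos had medians of 1646, 1772, 2186 and 2872 CPM in the same order. By pool, the median cell was higher with Fos in 6 of 8, at 1476 to 6020 CPM with Fos and 1395 to 6281 CPM without.

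**Figure D4:**
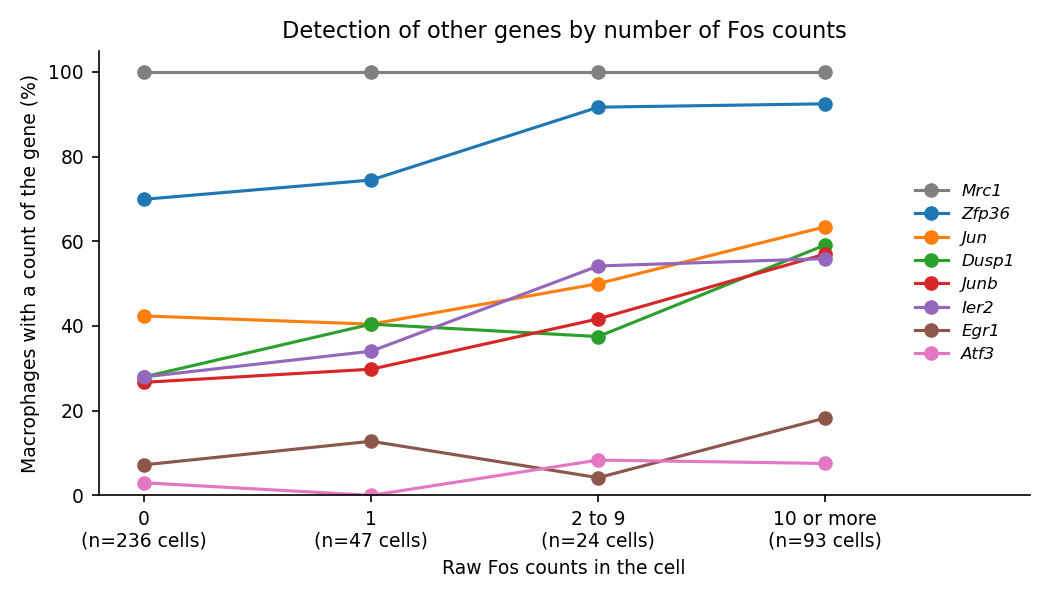
Percentage of macrophages with a count of each of 8 genes (y axis) by the number of raw Fos counts in the cell (x axis, with the number of cells). Cells of all pools are combined, so plate and genotype differ between the classes. Zfp36, Jun, Junb, Ier2 and Dusp1 are highest at 10 or more Fos counts, or level with the class before, and Mrc1 is at 100% throughout.

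At equal depth and with pools weighted equally, most of these genes were again found more often. Fos classes were set before thinning, and the side with at least 10 Fos counts held 3 to 29 thinned cells a pool, under 5 in KO of plate 060s and Het of plate 524s. In thinned cells Jun had a count in 68.8% of cells with at least 10 Fos counts and 37.7% of cells with none (higher in 7 of 8 pools). Ier2 had one in 49.7% and 25% (8 of 8 pools), Zfp36 in 85.1% and 68.2% (6 of 8), Junb in 41.9% and 24.1% (6 of 8) and Rhob in 49.3% and 32.1% (5 of 8). Dusp1, at 43.3% and 38.3% (5 of 8), and Trib1, at 29.6% and 27% (4 of 8), were close. Of the 18 measured immediate early genes, 9 (50%) were found in at least 10 percentage points more of the cells with at least 10 Fos counts, beside 829 of all 5095 measured genes (16.3%). Over the 6 pools with at least 5 cells a side, an alternative chosen after seeing the data, it was 6 (33.3%) beside 874 (17.2%), and Jun had a count in 58.4% and 39.9% of cells. With at least 1 Fos count in 8 pools it was 6 (33.3%) beside 616 (12.1%). Over the 6 pools other lists reached like shares: splicing and nuclear RNA 36.4%, genes upstream of Fos 33.3% and heat shock and folding genes 30%. Over the 8 pools, with at least 10 Fos counts, these lists had 18.2%, 25% and 20%. Perivascular macrophage genes had 7.14% over the 6 pools and 3.57% over the 8. Thinned cells with Fos showed more genes in general: 65.5% of all measured genes were found in a larger share of cells with at least 10 Fos counts, and 17 of the 18.

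Outside the lists, 17 genes were called higher. By size they were led by Pwwp3a (log2 ratio 2.69), Tank (2.26), Nup85 (2.08), Lrwd1 (2.04), Gabbr1 (2.03) and Wac (1.93). Tank, an adaptor of TRAF proteins and TBK1, stood at 5.68 to 125 CPM (median 43.1) with Fos and 0 to 38.9 CPM (median 10.2) without. Pwwp3a, a chromatin protein with a PWWP domain, stood at 39.6 to 248 CPM (median 115) with Fos and 0.331 to 64.4 CPM (median 28.2) without. Nup85 is a nuclear pore subunit, Lrwd1 binds the origin recognition complex, Gabbr1 is a GABA-B receptor subunit, and Wac takes part in ubiquitination of histone H2B. Next came Mkrn1 (1.83), Rbm4b (1.72), Rnf41 (1.49), Serpine2 (1.35), H6pd (1.34) and Hint2 (1.27), which include the ubiquitin ligases Mkrn1 and Rnf41 and the protease inhibitor Serpine2. The 5 others lay between 1.02 and 1.25. Of the 19 genes called higher, 10 passed the filter on low values only on the side with Fos, where they are high, so their difference was in part selected for. Among these were Pwwp3a, Tank, Lrwd1, Gabbr1, Wac, Rbm4b, Serpine2 and Hint2, whereas Trib1, Rhob, Nup85, Mkrn1, Rnf41 and H6pd passed on both sides. In each of these 12 named genes the ranges of the sides overlapped between pools.

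Outside the lists, 13 genes were called lower, led by Daxx (-2.82), Fam53a (-2.63) and Aim2 (-2.17). Daxx, a histone H3.3 chaperone, stood at 0 to 55.5 CPM (median 11.2) with Fos and 20.7 to 169 CPM (median 68.4) without, and Aim2, a sensor of cytosolic DNA, at 0 to 31.2 CPM (median 6.14) and 6.89 to 54.9 CPM (median 33.3). These 3 leaders passed the filter only on the side without Fos, where they are high, and the other 11 of the 14 passed on both sides. In Daxx, Fam53a and Aim2 a median of 74.6%, 64.2% and 58.6% of a pool's counts without Fos came from its top cell. Without the top cell of each side they stood at -1.34, -2.30 and -1.97, and none was called. Counts of them were found in 29.3%, 25.6% and 17.7% of cells with Fos and 30.5%, 25% and 27.5% without. Chromatin regulators among the others were the histone methyltransferase gene Kmt2a (-1.99) and the acetyltransferase gene Ep300 (-1.30). Kmt2a had a count in 31.1% of cells with Fos and 38.1% without, but Ep300 in 70.7% with Fos and 64.8% without. Slc35e1 (-1.90), Cryzl1 (-1.89), Ubp1 (-1.64), Dmxl1 (-1.36), Max (-1.33), the mTOR pathway inhibitor Tsc2 (-1.29) and Zcchc7 (-1.22) followed; Parp14 (-1.14) was chosen after its value was seen. Fam53a was the exception to overlap: it stood at 0.692 to 37.8 CPM with Fos and 40.9 to 128.5 CPM without. Cryzl1, a quinone oxidoreductase-like protein, had 2.34 to 41.1 CPM (median 17.7) with Fos and 27.6 to 155 CPM (median 57.4) without. Of the 33 genes called apart from Fos, Cryzl1 alone was called under all 19 alternatives that left no pool out. Trib1 was called in 17, Ep300 and Tsc2 in 16, Irf7 and Pwwp3a in 15, Rhob in 12 and Hint2 in 7. The call of Rhob was lost when cells weighed equally (1.04), in thinned cells (1.45) and at 10 or more Fos counts (1.18). Exons of Lrwd1, Wac, Mkrn1, Rbm4b, Cryzl1, Kmt2a, Ubp1, Ep300 and Tsc2 overlap other genes, so their counts are uncertain.

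By summed level, stress genes stood close to the background. Of 18 heat shock and folding genes 10 were measured, with a median log2 ratio of 0.12 and none called. Hspa5, the chaperone of the endoplasmic reticulum, had 798 to 1989 CPM (median 1262) with Fos and 827 to 1366 CPM (median 1128) without, higher in 4 of 8 pools (0.13 ± 0.30), and Hsp90ab1 in 4 of 8 (0.08 ± 0.50). The inducible Hsp90aa1 was higher with Fos in 7 of 8 pools (0.98 ± 1.20), at 6.06 to 64.6 CPM (median 28.6) with Fos and 7.84 to 24.1 CPM (median 12.7) without. Hspa1a, the classical heat shock gene, had a count in 4.27% of cells with Fos and 1.69% without. Thinned cells with at least 10 Fos counts were also set against those with none. There 2 of the 10 measured genes (20%) were found in at least 10 percentage points more cells, beside 16.3% of all genes. These were Dnaja1 (56% against 31.4%) and Hsf1 (42.4% against 30.1%). The list's median difference was 2.90 points, against 2.61 for all genes. Over the 6 pools with at least 5 cells a side it was 7.49, against 2.53. Of 17 oxidative and integrated stress genes 5 were measured, with a median of 0.10 and none called: the heme-degrading enzyme gene Hmox1 stood at 0.20 ± 0.48 and Xbp1 at 0.03 ± 0.45. In thinned cells the median difference of these 5 genes was 7.52 points over 8 pools and 6.20 over the 6. Over the 8 pools 1 of the 5 (20%) reached 10 points, beside 16.3% of all genes. This was Nfe2l2, at 13.85 points and higher in 7 pools. Over the 6 pools Nfe2l2 was found in 76.9% against 57% of cells, while Hmox1 was found in 84.8% against 88.8%.

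By summed level, cytokine genes did not share a direction. Of 29 cytokine and chemokine genes 9 were measured, 4 above 0 and 5 below, with a median of -0.02 and none called. In thinned cells, 3 of the 9 were found more often with at least 10 Fos counts than with none. Their median difference was -3.59 percentage points, against 2.61 for all genes, and none differed by 10 points or more. Over the 6 pools with at least 5 cells a side it was -4.01, against 2.53, with 2 of the 9 above 0. The most abundant were Ccl9, higher with Fos in 3 of 8 pools (-0.20 ± 0.94), and Ccl8, in 3 of 8 (-0.48 ± 1.23). Single pools differed widely, as Ccl7 showed. Ccl7 stood at 754 CPM with Fos and 6.46 CPM without in Het of plate 056s, where the top cell held 92.9% of the counts with Fos, and at 65.3 and 687 CPM in WT of plate 529s. Tnf, Il1b and Il6 were found in 6.71%, 4.27% and 0.61% of cells with Fos and 5.93%, 1.69% and 0% without. Of 27 NF-kB targets and regulators 12 were measured, with a median of 0.05 by summed level and none called. Cd14, the lipopolysaccharide co-receptor, stood at 0.07 ± 0.57 and the syndecan gene Sdc4 at -0.83 ± 1.28. Nfkbia, the inhibitor that NF-kB itself induces, was at 0.59 ± 1.29, higher in 4 of 8 pools. In thinned cells 11 of these 12 genes were found more often with at least 10 Fos counts than with none, beside 65.5% of all genes. The exception was Sdc4, in 73.8% against 86.1% of cells. Only 2 of the 12 (16.7%) were found in at least 10 percentage points more cells, beside 16.3% of all genes. Over the 6 pools the median difference of the 12 was 6.18 points, against 2.53, with 11 above 0.

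Identity genes were level. Of 30 perivascular macrophage genes 28 were measured, with a median log2 ratio of 0.02, 16 above 0 and none called. The summed level of the 30 had a median over pools of 48569 CPM with Fos and 45179 CPM without. This sum was higher with Fos in 6 of 8 pools, while the median cell was higher in 4 of 8. Stab1 had 5988 to 12655 CPM with Fos and 5837 to 10256 CPM without (-0.04 ± 0.23), and Mrc1 6061 to 10232 CPM and 5162 to 10609 CPM (0.11 ± 0.36). F13a1, a coagulation factor subunit, and Pf4, a platelet chemokine, were each higher with Fos in 7 of 8 pools by smaller amounts (0.38 ± 0.34 and 0.46 ± 0.41). Of 18 homeostatic microglia genes 16 were measured, with a median of -0.08 and none called; the growth factor receptor gene Csf1r stood at 0.03 ± 0.32 and Fcrls at -0.08 ± 0.15. Disease-associated genes (7 of 16 measured, Apoe -0.07 ± 0.15 and Ctsb -0.07 ± 0.17) had a median of -0.07. Among lysosomal genes (17 of 18 measured, Grn -0.06 ± 0.28 and Lgmn -0.01 ± 0.22) it was -0.08, with none called.

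Interferon genes formed the list that lay furthest below the background. Of 22 genes 13 were measured, with a median of -0.67, 11 below 0 and 1 called lower. That was Irf7, the transcription factor that amplifies type I interferon, at 118 and 133 CPM with Fos in KO (060s, 524s), 28.6, 22.5 and 264 CPM in Het (056s, 524s, 529s) and 19.2, 261 and 16.1 CPM in WT (059s, 529s, 530s). Without Fos it was at 252 and 226 CPM in KO, 86.7, 66.9 and 764 CPM in Het and 93.6, 449.9 and 62.5 CPM in WT. Each pool was lower with Fos (-1.42 ± 0.52), though the ranges overlapped. Ifit3, an antiviral RNA-binding protein gene, was lower in 7 pools and at 0 on both sides in the last (-1.95 ± 1.34).

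The summed levels rested in part on single cells. Summed over the 22 genes, the level was lower with Fos in 8 of 8 pools, at 740.5 to 3365 CPM (median 1750) with Fos and 1601 to 6019 CPM (median 1964) without. The median cell was lower in 6 of 8 pools. With the top cell of each side left out, the sum remained lower with Fos in 5 of 8 pools. It stood at 1704 CPM with Fos and 3877 CPM without in KO of plate 060s, and at 614 and 1326 CPM in Het of plate 524s, where no cell passed 5000 CPM. The sum was then higher with Fos in the other 3, as in Het of plate 529s, at 2576 CPM with Fos and 2231 CPM without, where the top cell had held 71% of the counts without Fos. A count of Irf7 was found in 34.8% of cells with Fos and 37.3% without, and in thinned cells in 47.7% of those with at least 10 Fos counts and 34.8% of those with none, the opposite direction to its summed level. Some other members were found in fewer of the thinned cells with at least 10 Fos counts: Ifit3 in 21.7% against 32.3% with none, Oasl2 in 33.8% against 41.9% and Ifitm3 in 65.8% against 72.8%, each lower in 5 of 8 pools. Some were found in more: Bst2 in 98% against 85% (higher in 7 of 8 pools), Ifi27l2a in 59.5% against 51.6% and Stat2 in 38.5% against 32.8% (5 of 8 each). Over the 13 measured members the median difference was -1.20 percentage points, against 2.61 for all measured genes, with 6 above 0. Without the top cell of each side the log2 ratio of Irf7 was -0.81. Among antigen presentation genes, the class I list (9 of 12 measured, median -0.21, H2-D1 -0.01 ± 0.54 and H2-K1 -0.21 ± 0.30) and the class II list (3 of 9, median -0.06, Cd74 -1.21 ± 1.75 and H2-DMb1 -0.06 ± 0.98) had none called.

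**Figure D5:**
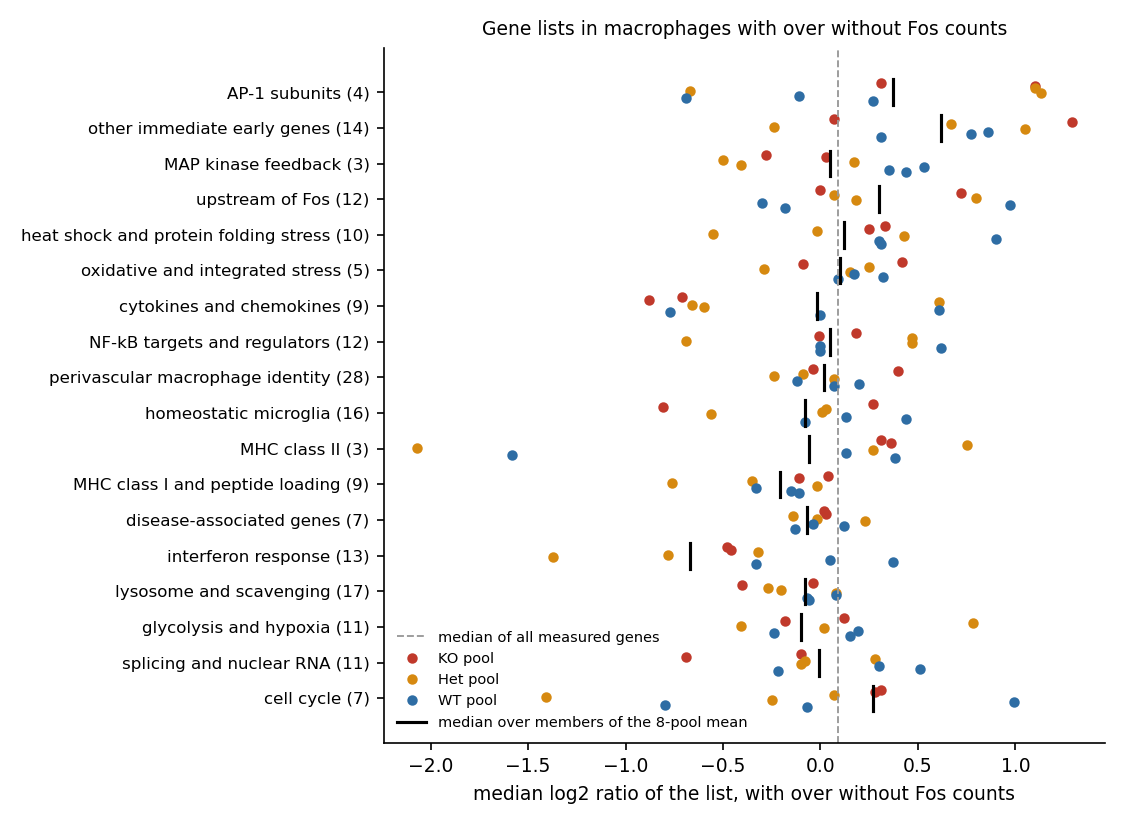
Median log2 ratio over the measured members of 18 gene lists (y axis, with the number measured), with over without Fos counts, in each pool (points) and for the mean over pools (bars). The dashed line is the median of all measured genes, 0.09; other immediate early genes have a bar at 0.62 and interferon genes at -0.67.

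The remaining lists had none called: glycolysis and hypoxia a median of -0.10 (11 of 17 measured, Aldoa -0.12 ± 0.74 and Ldha -0.06 ± 0.65), splicing and nuclear RNA -0.01 (11 of 14, Malat1 0.33 ± 0.41 and Neat1 0.09 ± 1.30) and cell cycle 0.27 (7 of 15, Tubb5 0.27 ± 0.80 and Ccnd3 0.27 ± 1.17). In the glycolysis list Eno1, an enolase, was higher in all 8 pools by less than 2-fold (0.82 ± 0.79).

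Markers of other cell types were looked at on both sides, by the summed level of each list per pool. Mural cell markers (12 genes) had 0.275 to 8.93 CPM with Fos and 0.248 to 24.7 CPM without, endothelial markers (11) 0.0917 to 33.3 and 0 to 23.1 CPM, and fibroblast markers (7) 0 to 57 and 0 to 23.7 CPM. Among mural genes Kcnj8, Abcc9, Vtn and Des were at 0 with Fos and Myh11 and Abcc9 without. Among endothelial genes Cdh5, Flt1, Tek, Ly6c1, Slco1a4 and Vwf were at 0 with Fos. Astrocyte markers (8) had 66 to 289 CPM (median 166) with Fos and 49.8 to 254 CPM (median 84.7) without. The sum was higher with Fos in 8 of 8 pools, while the median cell was higher in 4 of 8. The 2 measured members ran opposite ways. Aldoc stood at 1.07 ± 1.79, and Slc1a2 at -0.54 ± 1.63, lower with Fos in 6 of 8 pools. Oligodendrocyte markers (9) had 324 to 1894 CPM with Fos and 307 to 1466 CPM without, higher in 5 of 8 pools, with Mbp at 0.27 ± 0.91 and Cnp at -0.32 ± 0.52. Lymphocyte markers (11) had 170.2 to 674 CPM with Fos and 89.2 to 669 CPM without, and dendritic cell markers (9) 29.4 to 203 and 16 to 445 CPM. Monocyte and neutrophil markers (10) had 47.8 to 236 CPM with Fos and 32.6 to 162 CPM without, and neuron markers (9) 3.27 to 244 and 6.48 to 18.4 CPM. The part of these markers in the results was not tested.

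The genes whose level over cells was most like that of Fos were not immediate early genes. By the mean of the Spearman correlations inside the 8 pools, they were Pfn1 (0.25), H6pd, Alg5, Eif4g2 and Eif3i (0.23 each), above 0 in 7 or 8 pools, and H6pd was also called higher. They encode the actin-binding protein profilin, an enzyme of the endoplasmic reticulum that makes NADPH, an enzyme of protein glycosylation and translation initiation factors. Jun and Dusp1 had 0.19, Zfp36 0.18 and Junb and Ier2 0.15. All these are weak, and the cells of a pool share their plate. The correlation of Fos with the cell's total ran from -0.38 to 0.40 between pools.

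Microglia were split by the same rule, which left 6 pools with at least 5 cells a side, 2 of KO, 3 of Het and 1 of WT. Of 6528 measured genes 39, Fos among them, were higher (0.597%) and 52 lower (0.797%). The 19 genes called higher in macrophages gave 18 measured in microglia, 9 above 0 and 8 below, with a median log2 ratio of 0.01, and of the 14 called lower 9 lay below 0 and 5 above, with a median of -0.37. None was called in both. Rhob was level in microglia (0.01 ± 0.37), Trib1 stood at 0.54 ± 1.02 and Irf7 at -1.74 ± 2.33, lower with Fos in 4 of 6 pools. The difference between cell types was not tested.

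Dusp1 and the cytokine gene Osm, an interleukin-6 relative, were called higher in microglia (1.03 ± 0.59 and 2.71 ± 1.77). In microglia Osm had 30.7 to 101 CPM with Fos and 1.97 to 24.8 CPM without; in macrophages it was not measured, with a log2 ratio of -0.51 ± 2.96. Ier2 stood at 1.25 ± 1.25 in microglia, higher in 5 of 6 pools, beside 1.34 ± 2.40 in macrophages, and Zfp36 at 0.36 ± 0.38 beside 0.27 ± 0.97. Jun was level in microglia (0.03 ± 1.02). The list of other immediate early genes had a median of 0.10 in microglia (18 measured, none called, against -0.07 for all genes), where in macrophages it was 0.62 against 0.09.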

How the data were processed

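The authors deposited whole-number counts per gene for 629 single cells, 53546 gene symbols and 92 ERCC spike-ins, with no normalisation per the file's values; STAR is named in the submitters' processing notes. The STAR version, build, gene annotation, counter, strand setting and filters on cells are not given in the sources used here. Each column was tied to its label by name.

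ERCC (1.22% of counts) and Rn18s (40.3% of macrophage gene counts) were left out of totals. Counts were summed per side of a pool and scaled to CPM, and ratios used CPM + 1. No test was run, so no p-value is given, and an SD is over pools. The members and the 27 lists (425 genes) were chosen with earlier results of these data known. Named by rule were the 4 markers, called list members or else the 2 most abundant per list, up to 12 other called genes per direction, predicted genes left out, and the 5 genes most like Fos. Others (such as Junb, Ier2, Klf10, Btg2, Hsp90aa1, Ccl7, Ifit3, F13a1, Pf4, Eno1, Osm) were chosen after their values were seen.

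Cells may share animals and are not replicates, and counts without molecular identifiers can be PCR copies. The depth per macrophage was 1488 to 1959090 counts (median 197196). Names and exon overlaps came from GENCODE M21 (81 of 82 named genes found) and promoters from RefSeq. Alternatives changed the level, total, scaling (edgeR 4.0.16 TMM, DESeq2 1.42.0 size factors, R 4.3.3), pseudocount, filters, Fos threshold, depth, cells and pools. Python 3.11.15 was used with pandas 2.3.3, numpy 2.4.6, scipy 1.17.1 and matplotlib 3.10.9. The call rule was also run on simulated data as a check of the code. The outcome is not given here, and no call rests on it.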

Additional observations from a re-analysis of the deposited data

Results flagged for a closer look

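Zfp36 differed in direction between Het and WT. The 3 Het pools were lower with Fos counts (median log2 ratio -0.53) and the 3 WT pools higher (median 1.04). It was picked by a search of gene lists and several genes, over pairs of genotypes, for opposite signs. The KO pools split, lower with Fos on plate 060s and higher on 524s. In WT of plate 529s, which also held Het cells, it had 970.3 CPM with Fos and 902 without. A count was found in 84.6%, 88.9% and 100% of Het cells with 0 Fos counts (plates 056s, 524s, 529s). With at least 10 it was 100%, 100% and 83.3%. The difference between genotypes was not tested. The top cell held 20 to 35% of a Het pool's Zfp36 counts with Fos and 44 to 61.8% without.

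The cells labelled 7, which enter no comparison, also held Fos counts: 7 of 14 had at least 1 (50%, exact 95% interval 23 to 77%), and 2 of 14 at least 10.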

How the results depend on the processing

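The number of genes called depended on the settings, and so did their identity. For genes higher with Fos, 19 without Fos itself, the count was 11 when cells weighed equally (6 of them shared with the 19), 9 with a pseudocount of 10 CPM, 11 with a floor of 50 CPM, 29 with no filter on the share of cells, 29 at a 1.5-fold limit, 12 in thinned cells (3 shared) and 120 with pools of at least 10 cells a side, which left 4 pools. Leaving out the cells with 1 Fos count, an alternative chosen after seeing the data, gave 29 (8 shared). For genes lower with Fos, 14, it was 9 without the top cell of each gene and side, 9 with Rn18s in the total, 23 at a 1.5-fold limit, 23 and 30 with at least 5 and 10 Fos counts (4 shared each), 8 in thinned cells (4 shared) and 74 with pools of at least 10 cells a side. With 1 pool left out, higher genes ran from 27 to 44 and lower genes from 16 to 26, as fewer pools have to share a sign. Higher genes passed 1.5 times 19 without any pool except Het and WT of plate 529s, and lower genes 1.5 times 14 without any pool except Het of plates 524s and 529s. At a threshold of at least 10 Fos counts, 16 genes were higher, of which 1 was among the 19. The share of macrophages was 25% with at least 5 Fos counts, 23.25% with at least 10 and 31.39% in thinned cells. Hint2 changed sign, at -0.42 and -0.38 with at least 5 and 10 Fos counts and -0.37 in thinned cells with the sides set again; the cause was not tested.

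Under alternatives, list medians moved by less than their SD over pools in 504 cases and by more in 5. Other immediate early genes ran from 0.34 to 0.79 and lay above the median of all genes in 27 of 27 alternatives, and interferon genes ran from -1.13 to -0.20 and lay below it in 27. Each ratio pairs both sides of a pool, and no test was run on these pairs. With 7 to 49 cells on a side with Fos, and 3 to 29 thinned cells with at least 10 Fos counts, single cells limit every value.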
